A study of Neurospora crassa with 10 samples.

Results

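The gene-dense windows of the Neurospora crassa genome are described here, as they lie in the deposited gene annotation of the corrected assembly nc14. Each linkage group (LG, the chromosomes of this fungus) was divided into 20-kb windows that do not overlap, starting at base 1 and ending at the last complete window before the highest gene end. Gene coverage was taken as the percentage of bases of a window that lie in at least 1 gene span, introns included. A window with a gene coverage of 75% or more was called gene-dense. This rule chose 520 of 2040 windows, or 25.5%, and together they hold 10.4 Mb of the 40.8 Mb in complete windows. Since these windows were chosen by gene coverage, their coverage and everything tied to it (genes per window, gene length, gaps, exons and the orientation of neighbors) are given as description, without a test.

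The study examined chromosome folding by in situ Hi-C, which ligates and sequences DNA fragments that touch in the nucleus, in germinated conidia (asexual spores) of wild type Neurospora. The labels describe 10 datasets of this genotype and stage: DpnII libraries of strain N150 after 8, 15 or 23 PCR cycles, a DpnII library of strain N3752 after 8 cycles, MseI libraries of N150 and of N3752 after 8 cycles each, a merged DpnII and a merged MseI dataset, and a double digest of each strain. DpnII cuts at GATC and MseI at TTAA, and N150 and N3752 are the same wild type background kept as separate stocks. The annotation belongs to the series as a whole and has no value per library, so depth and replicate error do not apply, no comparison of strains, enzymes or PCR cycles was made, and DNA sequence was not used here.

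In filamentous fungi, chromosomes alternate between euchromatin, which carries the genes, and constitutive heterochromatin, which in Neurospora is AT-rich, poor in genes and marked by trimethylation of histone H3 on lysine 9 and by DNA methylation. Fungal genes are short, have few introns and lie close together, and some overlap at their ends. The side of a gene on which a neighbor lies, and the strand that neighbor is read from, decide whether a pair shares its upstream region (divergent genes), its 3′ region (convergent genes) or follows head to tail (same strand).

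Gene coverage of the gene-dense windows had a median of 82.0% and ran up to 100%, against a median of 55.6% in the other 1520 windows. Partly covered and empty windows made up the rest: 899 of the other windows had a coverage of at least 50%, and 162 had no gene base at all. Within the gene-dense windows, 332 reached 80%, 151 reached 85%, 40 reached 90% and 3 reached 95%. The windows form a continuous range at the limit rather than a separate class, with 50 gene-dense windows between 75 and 76% and 40 other windows between 74 and 75%. The gene-dense window nearest to the limit was LG IV 3100001 to 3120000, with 75.005% and 7 genes (NCU04521 to NCU04515). The other window nearest to it was LG VII 2760001 to 2780000, with 74.98% and 3 genes (NCU02357, NCU02355 and wc-1, which encodes a blue-light photoreceptor and transcription factor).

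**Figure D1:**
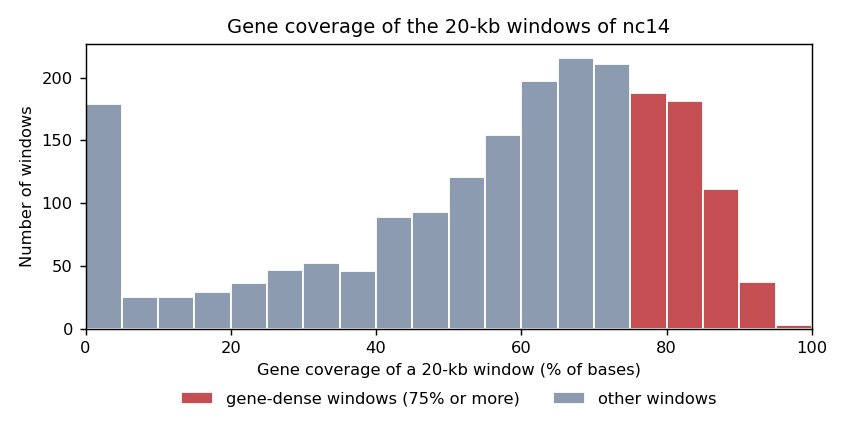
Number of 20-kb windows (vertical axis) in each 5-point interval of gene coverage (horizontal axis, % of bases), for the 520 gene-dense windows in red and the 1520 other windows in gray. The gene-dense windows are the upper side of 1 broad peak, and the intervals on both sides of 75% are about equally filled.

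The 5 windows of highest coverage were filled in different ways. LG I 9320001 to 9340000 was covered to 100% by a single gene, NCU02793, the longest of the annotation at 34205 bp (LG I 9306439 to 9340643, plus strand, 14 exons and 32217 bp of coding sequence). NCU02793 also covered 13562 bp of the window to its left, whose gene coverage was 83.8% in all. The only gene with its middle inside that window was so (NCU02794), a gene of hyphal fusion, which covered 3192 bp of it. These neighboring windows had the fewest genes of all gene-dense windows. LG V 3900001 to 3920000 reached 95.4% with 5 genes (NCU01283, NCU01284, NCU01285, NCU10476 and NCU01288), the longest being NCU01288 at 5834 bp. LG III 2640001 to 2660000 reached 95.01% with 9 genes, among them pro-4, stk-13 of the serine/threonine kinase series and NCU00109, the longest at 4214 bp. LG III 1920001 to 1940000 reached 94.95% with 7 genes from tca-16 to NCU06217 (longest NCU06216, 4392 bp), and LG V 1720001 to 1740000 reached 94.6% with 7 genes from NCU04650 to NCU04644 (longest NCU04650, 5533 bp). These windows thus held between 1 and 9 genes at a similar coverage.

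The gene-dense windows held 3317 of the 9730 protein-coding genes (34.1%) by the position of the gene's middle, 38.0% of all coding bases and 33.6% of all intron bases, and no rRNA or tRNA gene. They had 6.38 ± 1.44 genes per window (mean ± SD over 520 windows) with a median of 6 and a range of 1 to 11, against 4.29 ± 2.34 genes and a median of 5 in the other windows. The other windows with at least 50% coverage had 5.56 ± 1.46 genes and also a median of 6. A high coverage therefore did not always mean many genes. Of the 191 windows with 8 or more genes, 108 were gene-dense and 83 were not, and 135 gene-dense windows held 5 genes or fewer. The most genes in a gene-dense window were the 11 of LG V 2280001 to 2300000 (pod-5 to NCU03638), at a coverage of 85.35%.

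Gene-dense windows with more genes had shorter genes, at a nearly constant coverage. The 13 windows with at most 3 genes had a median coverage of 83.6% and a median gene length of 4257 bp. The 122 windows with 4 or 5 genes had a median gene length of 3090 bp, the 277 windows with 6 or 7 genes one of 2381 bp, the 104 windows with 8 or 9 genes one of 1951 bp, and the 4 windows with 10 or more genes one of 1755 bp, at 84.2% median coverage.

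Coding sequence took a median of 53.8% of the bases of a gene-dense window, against 34.4% in the other windows and 41.2% in those of 50 to 75% coverage. Exon bases outside coding sequence, mostly untranslated ends of mRNAs, took 22.1% in gene-dense windows, against 13.3% in the other windows. Introns took 5.55% in gene-dense windows and 3.68% in the other windows, and bases in no gene took 18.0% in gene-dense windows and 44.4% in the other windows. The coding share varied widely among the gene-dense windows, between 28.95 and 96.9%. The lowest share was that of LG IV 3100001 to 3120000, the window nearest to the limit, where NCU04516 spans 4310 bp with 480 bp of coding sequence. The highest intron share, 20.0%, was that of LG II 3180001 to 3200000, which holds gpd-1, named for glyceraldehyde-3-phosphate dehydrogenase, and hda-1, a histone deacetylase. Of these, NCU04516, gpd-1 and the intron-rich window were picked after their values were seen.

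**Figure D2:**
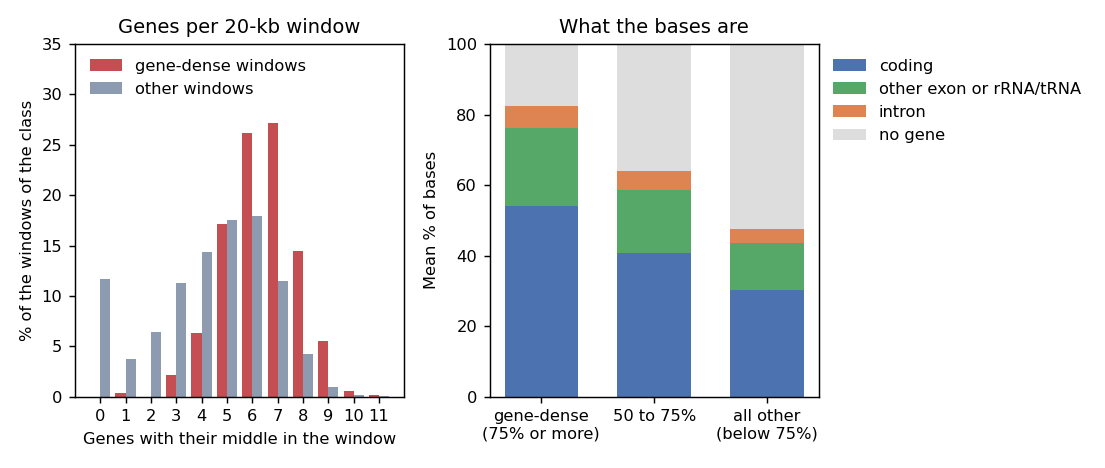
Left, percentage of the windows of each class (vertical axis) with a given number of genes (horizontal axis), gene-dense windows in red and other windows in gray. Right, mean percentage of bases that are coding, other exon or rRNA/tRNA, intron or in no gene, for the gene-dense windows, the 899 other windows of 50 to 75% coverage and all 1520 other windows; coding sequence averages 54.1% in the first and 30.2% in the last.

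Genes in gene-dense windows had a median length of 2351 bp and a median coding length of 1404 bp, against 2018 bp and 1203 bp for genes in the other windows. The share of genes that lie in gene-dense windows rose with each step in gene length, being 15.6% for genes under 1 kb, 32.1% for those of 1 to 2 kb, 37.4% for 2 to 3 kb, 39.2% for 3 to 4 kb, 42.3% for 4 to 5 kb and 45.1% for genes of 5 kb or more. Genes under 1 kb made up 5.19% of the genes in gene-dense windows and 14.6% of those in the other windows. Single-exon genes made up 15.3% in gene-dense windows and 19.3% in the other windows, and genes with more than 1 annotated transcript 11.1% in gene-dense windows and 8.25% in the other windows. The mean number of exons was 2.90 in gene-dense windows and 2.74 in the other windows. After NCU02793, the longest genes in gene-dense windows were ro-1 (NCU06976, LG IV 4729512 to 4743787), which encodes the heavy chain of the motor dynein, at 14276 bp, and NCU08501 (LG II 3439048 to 3453094) at 14047 bp. Gene length enters the coverage of a window directly, so these differences are not independent of the choice of windows.

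Gene-dense windows formed 334 runs, a run being an unbroken series of such windows. Of these, 220 were single windows, 74 were of 2 windows, 25 of 3, 8 of 4, 1 of 5, 5 of 6 and 1 of 10, so that 300 windows (57.7%) had a gene-dense neighbor. The window to the right of a gene-dense window was itself gene-dense in 35.8% of cases, against 21.9% to the right of another window. At 200 kb, these shares were 30.1% after gene-dense windows and 24.2% after the others, and at 400 kb they were 29.9 and 25.3%. Neighboring windows are not independent here: a gene crossed 159 of the 186 borders between gene-dense windows (85.5%), against 57.7% of all window borders, and such a gene gives coverage to both sides.

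The longest run was LG V 2720001 to 2920000, a stretch of 200 kb with 63 genes from NCU03762 to NCU03825. Its 10 windows had a mean coverage of 84.3%, with 75.6% in the lowest and 93.1% in the highest, and 4 to 8 genes each, 34 genes being on the plus and 29 on the minus strand. At a limit of 80% the longest run of the genome was of 6 windows, with exon bases alone of 4, and in 10-kb windows of 9. Coverage was 68.4% in the window to its left and 52.8% in that to its right. Genes with a symbol in this run included tim22, a translocase of the mitochondrial inner membrane, leu-5, the mitochondrial leucyl-tRNA synthetase, cyh-2, a ribosomal protein whose mutants resist cycloheximide, fdh for formate dehydrogenase, the kinases stk-24 and stk-25 and the glycoside hydrolase gh76-7. Many genes of the run have an NCU number alone.

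The next longest runs, of 6 windows or 120 kb each, lie on LG I, II, V and VII. LG I 7000001 to 7120000 holds 45 genes, among them wc-2, the partner of wc-1 in the light-sensing complex, met-6 and ham-7. LG II 2480001 to 2600000 holds 35 genes with nuo78, a subunit of respiratory complex I, arp-3 and adh-1. LG V 3460001 to 3580000 had the highest mean coverage of the runs of 5 windows or more, at 86.9%, and holds 38 genes with nuo24, tom40, the pore of the mitochondrial outer membrane translocase, and cpc-3, the kinase that senses amino acid starvation. On LG VII, 2640001 to 2760000 holds 41 genes with ilv-5, nuo40 and mak-2, a kinase of the fusion pathway. LG VII 3160001 to 3280000 holds 36 genes with dim-2, the DNA methyltransferase, rpn-3 of the proteasome and oli, a subunit of the mitochondrial ATP synthase. The run of 5 windows, LG II 2000001 to 2100000, holds 33 genes, among them dcl-2, a Dicer ribonuclease of RNA silencing. These 7 runs hold 45 of the 520 gene-dense windows, and their symbols were read after the runs were known.

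The choice of frame moved single windows in and out. With frames shifted by 5, 10 or 15 kb, 549, 535 and 530 windows were gene-dense, and 84.8, 81.7 and 84.6% of the 520 windows overlapped a gene-dense window of the shifted frame, against 29.0, 28.5 and 28.2% of the other windows.

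Each LG had gene-dense windows, between 19.7% of the windows on LG VI (41 of 208) and 29.3% on LG IV (87 of 297). LG I had 28.3% (141 of 498), LG II 24.7% (55 of 223), LG III 24.7% (65 of 263), LG V 24.4% (83 of 340) and LG VII 22.7% (48 of 211). The arms differed more than the LGs did. Arms were separated at an arm divider, the longest stretch without a gene on each LG, except on LG I, where it is the gene-free stretches beside NCU08585. The annotation has no centromere feature, so the divider only marks where the arms were parted. Among the shorter arms, the left arm of LG V had 2 gene-dense windows of 64 (3.13%), the left arm of LG III 3 of 41 (7.32%), the right arm of LG VI 4 of 54 (7.41%) and the left arm of LG IV 4 of 44 (9.09%). The arms across the divider from these had 31.2, 28.8, 26.8 and 33.6%, in the same order. On LG I and LG II both arms held many, with 26.7 and 20.7% on the left and 30.4 and 27.7% on the right. The longer arm had the higher share on 6 of 7 LGs, the exception being LG VII, with 18.7% on the longer left arm and 32.2% on the right arm. The left arm of LG V includes the 20 windows of the rRNA gene array, which lie between 9.51 and 64.05% coverage and are never gene-dense. Without them 2 of 44 windows (4.55%) of this arm were gene-dense. The split by arm was read after the values were known, and no test was run on it.

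**Figure D3:**
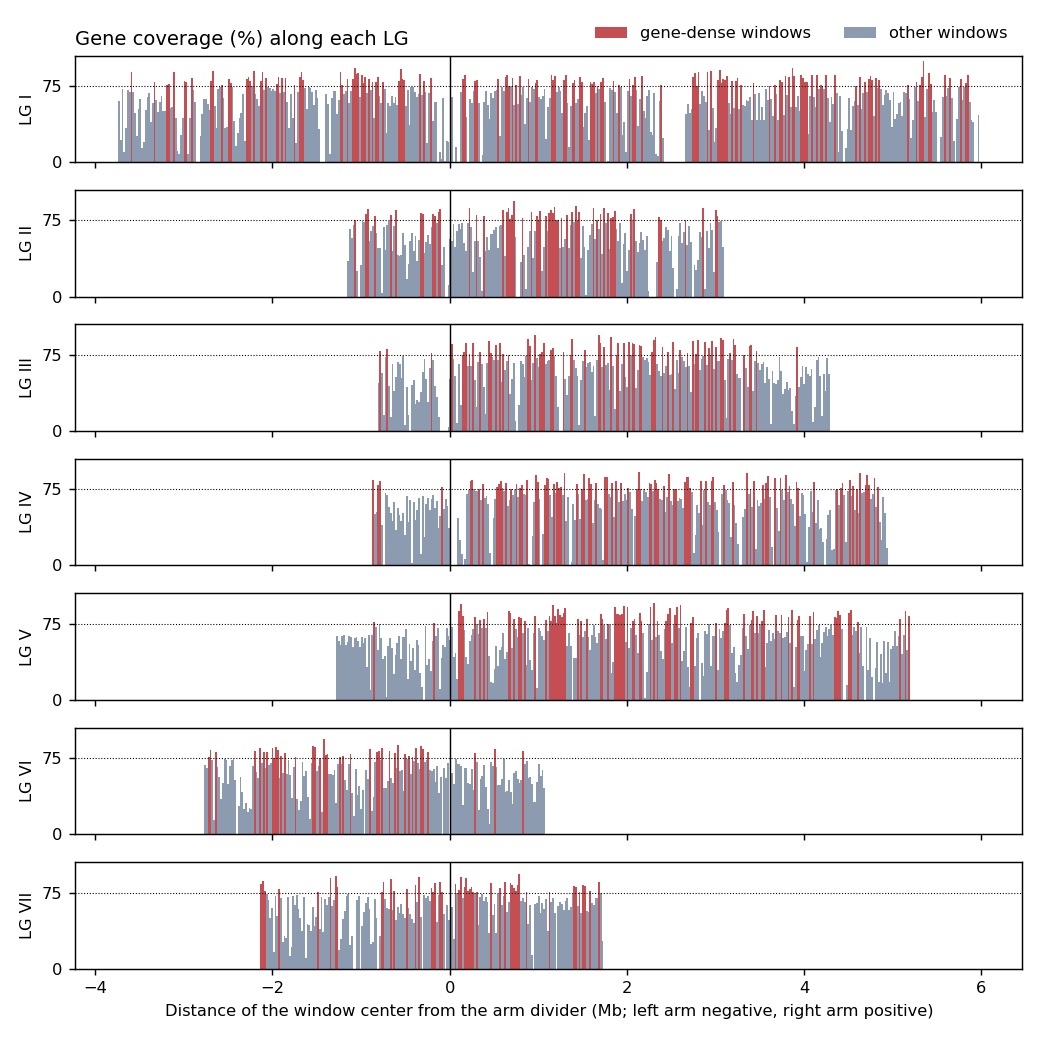
Gene coverage of each 20-kb window (vertical axis of each panel, %) by the distance of its center from the arm divider in Mb (horizontal axis, left arm negative and right arm positive), 1 panel per LG; gene-dense windows are red, other windows gray, and the dotted line is at 75%. The left arms of LG III, IV and V and the right arm of LG VI hold 13 gene-dense windows in all, while the arm across the divider on each of these LGs is rich in them.

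Gene-dense windows lay further from the LG ends than the other windows. The mean distance from the nearer LG end (base 1 or the end of the last gene) was 1687 kb for gene-dense windows and 1388 kb for the other windows, as means over the 7 LGs. The mean difference was 299.6 ± 197.0 kb (SD over LGs, n = 7), with the gene-dense windows further inward on 7 of 7 LGs (exact sign-flip permutation test over LGs, 2-sided, p = 0.0156, the smallest that 7 LGs can give; Benjamini-Hochberg adjusted p = 0.0234 over the 3 planned tests and 0.0313 over the 2 tests of position). The difference was 639.1 kb on LG V and 48.1 kb on LG VII, the extremes of the range. At limits of 70 and 80% and in 10-kb and 40-kb windows, gene-dense windows lay further inward on 6 of 7 LGs. There the nearer end did not pass over the 2 tests of position (exact sign-flip permutation test, adjusted p = 0.0625). The arms with the fewest gene-dense windows are shorter arms, so distance from an end and arm cannot be told apart here. LGs of 1 genome stand in for replicates in this test, so p measures how alike the LGs are and not a spread between cultures. By distance, 21.5% of windows were gene-dense within 100 kb of an end, 15.7% at 100 to 300 kb, 11.4% at 300 to 600 kb, 17.1% at 600 to 1000 kb, 28.1% at 1000 to 2000 kb and 33.3% beyond. The lowest share was therefore not at the ends themselves, and on LG IV and LG VII the first window was gene-dense.

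The distance from the arm divider did not differ beyond the spread between LGs. Gene-dense windows had a mean of 1750 kb and the other windows 1650 kb, a difference of 99.4 ± 163.8 kb (SD, n = 7), and the gene-dense windows were further away on 4 of 7 LGs (exact sign-flip permutation test, 2-sided, p = 0.188, and the same after adjustment). The other windows include the divider windows themselves, and without windows of no gene base the difference was 4.95 kb, with the gene-dense windows further away on 3 of 7 LGs. The 84 divider windows cannot be gene-dense by construction. Of the 70 windows outside a divider and within 100 kb of it, 5 were gene-dense (7.14%), and at 100 to 300 kb 27.1% were. The gene-dense window nearest to a divider, on LG VI, had its center 9.69 kb away from it. The longest stretch without a gene-dense window was between 480 and 680 kb on each LG, and it held the divider on LG I, II and VI.

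Neighboring genes in gene-dense windows were read from the same strand less often. Of 3289 neighbor pairs in gene-dense windows, 39.4% were on the same strand, 30.4% convergent and 30.2% divergent. Of 6549 pairs in the other windows, 48.6% were on the same strand, 25.6% convergent and 25.8% divergent. Averaged over LGs, the same-strand share was 39.5% in gene-dense windows and 48.7% in the other windows, a difference of -9.13 ± 4.22 percentage points (SD, n = 7), lower on 7 of 7 LGs. No test is given for it, since orientation bears on gap length and so on the coverage that chose the windows. By LG the share lay between 36.6 and 44.0% in gene-dense windows, against 45.2 to 54.4% in the other windows. The highest of these, 54.4%, is that of LG V with its rRNA array, and it was 48.6% with protein-coding genes alone. Set against the other windows of at least 50% coverage alone, the difference was -8.08 points. The strands themselves were balanced, with 50.0% of the genes on the plus strand in gene-dense windows (1657 of 3317) and 50.5% in the other windows (3223 of 6388). Among windows with 4 or more genes, 6 of 507 gene-dense windows (1.18%) and 67 of 1016 other windows (6.59%) had all genes on 1 strand. Of these other windows 18 belong to the rRNA array, and without the array 49 of 997 (4.91%) had all genes on 1 strand. Of these 6 windows, those with ro-1, with ace-2 and with dim-9, a part of the complex that directs lysine 9 methylation, hold genes with a symbol.

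**Figure D4:**
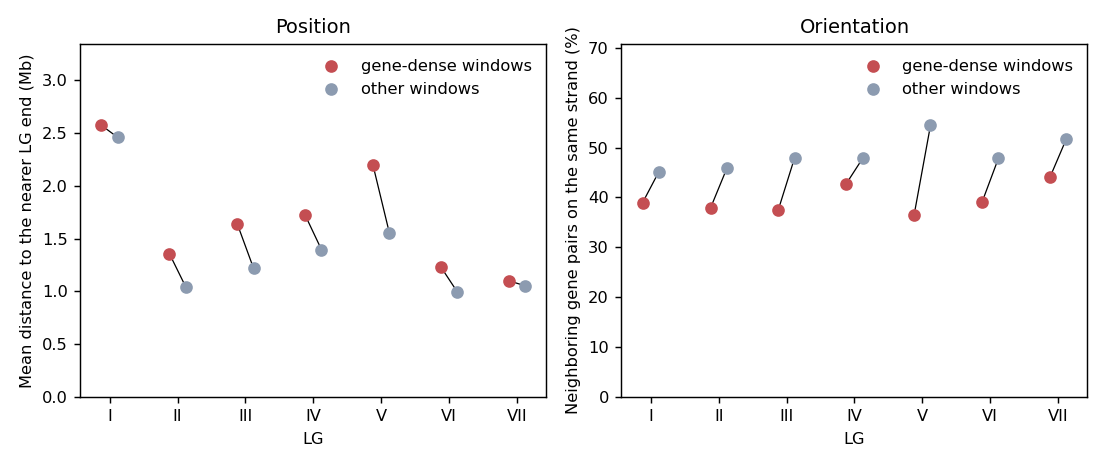
For each of the 7 LGs (horizontal axis), the value of the gene-dense windows (red, left point) joined to that of the other windows (gray, right point). The left panel gives the mean distance to the nearer LG end in Mb, which is larger for gene-dense windows on each LG, and the right panel the percentage of neighboring gene pairs on the same strand, which is lower for them on each LG.

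The spacing of neighboring genes moved with their orientation. In gene-dense windows the median gap was 0 bp for convergent pairs, 430 bp for divergent pairs and 471 bp for same-strand pairs. In the other windows it was 422 bp for convergent, 1068 bp for divergent and 1040 bp for same-strand pairs. Annotated spans overlapped in 500 of 1001 convergent pairs in gene-dense windows (49.95%), against 27.8% of convergent pairs in the other windows, while 1.16% of same-strand pairs overlapped in either. Convergent pairs thus had the shortest gaps in both kinds of window. How far the lower same-strand share follows from the choice by coverage was not tested.

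Gene groups lay in gene-dense windows to very different degrees, read beside the 34.1% of all protein-coding genes and the 40.7% of genes with a symbol (455 of 1118). Groups were collected by symbol, and their counts are a description. Of the 29 genes named as subunits of respiratory complex I, the first enzyme of the mitochondrial respiratory chain, 20 lay in gene-dense windows (69.0%), in 20 different windows on 7 LGs. They include nuo18.4 at 91.4% window coverage, nuo21 at 89.6%, nuo51 at 82.5%, nuo49 at 81.7% and, at the limit, nuo13.4 at 75.02% and nuo9.8 at 75.06%. These are short genes, with a median of 1611 bp over the 29, against 2129 bp for all protein-coding genes. The other 9 include nuo20.1, in a window of 32.2%, and nuo21.3b, in one of 71.6%.

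Of 21 genes of silent chromatin and histone methylation, 13 lay in gene-dense windows (61.9%). Among them were dim-2 (82.9% window coverage), set-7, the methyltransferase of H3 lysine 27 (78.9%), set-1, that of lysine 4 (91.6%), hda-1 (77.05%) and chap (84.7%) of a deacetylase complex, and dim-8 (76.4%) and dim-9 (89.1%). The lysine 9 methyltransferase dim-5 lay in a window of 63.96% and its partner dim-7 in one of 62.5%. Window coverage was 65.4% for hpo, which encodes heterochromatin protein 1, and 55.4% for set-2, a lysine 36 methyltransferase. Members of the complex around DIM-5 therefore lay on both sides of the limit. The genes of this list had a median length of 3925 bp, and the part of gene length in its share was not tested. The shares of other lists of long genes varied. They were 31.6% for hyphal fusion (3939 bp) and 36.9% for the kinase list (3730 bp). For DNA repair (3425 bp) the share was 48.6%, and for nitrogen use (4284 bp) it was 60.0%. These lists hold 5 to 65 genes, and no comparison at matched gene length was made.

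Of 35 DNA repair genes (mus, mei, msh, mlh, rad and uvs), 17 lay in gene-dense windows (48.6%), with mus-38, mus-42, mlh-2, uvs-6 and rad23 among them. Of 68 genes in the amino acid list, 29 did (42.6%), for example arg-2, arg-3, his-2, leu-1, leu-2, met-6, trp-1 and ilv-5. This list was made by symbol and holds genes for transport, regulation and tRNA charging as well as synthesis. It also holds ace-2, ace-3, ace-4 and ace-8, so not all of its genes are of amino acid mutants. The list of serine/threonine kinases had 24 of 65 (36.9%), the vacuolar ATPase 5 of 13 (38.5%) and motor proteins and dynactin 5 of 11 (45.5%, among them ro-1, ro-7 and kin-3). The kinase and vacuolar ATPase shares lie between the 34.1% of all protein-coding genes and the 40.7% of genes with a symbol. The kinase list was made of stk, prk, ckb and pkc symbols. It leaves out cpc-3 and mak-2, both in gene-dense windows, and does not stand for all kinases. Cytoplasmic ribosomal proteins with a plain crp symbol had 4 of 7 (57.1%, crp-3, crp-5, crp-7 and crp-10). This crp list leaves out cyh-2 and ubi::crp-6, both in gene-dense windows, and does not stand for all ribosomal proteins.

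Most other lists were near or below the share of all protein-coding genes, and below the 40.7% of genes with a symbol. Of 80 glycoside hydrolases, which cleave sugar chains of polysaccharides or of glycoproteins, 19 lay in gene-dense windows (23.8%), in 18 windows. Those inside included gh10-4, gh28-1, gh61-1 and gh61-4, and those outside included the cellobiohydrolase cbh-1. Of 17 genes for chitin synthases, chitinases and anchored cell wall proteins, 3 lay inside (17.6%, acw-2, acw-7 and chs-5). Histone genes had 2 of 9 (22.2%, hH3v and hH4-2) and acetate-use genes 1 of 6 (16.7%, acu-3). The clock and light genes had 7 of 22 (31.8%), with wc-2, frh, fwd-1, cry and al-1 inside and frq, vvd and wc-1 outside. Hyphal fusion had 6 of 19 (31.6%, so, mak-2, mek-2, nrc-2, ham-7 and ham-10) and polyketide synthases 2 of 6 (33.3%, pks-1 and pks-5). Above both shares, nitrogen-use genes had 3 of 5 (60.0%, the regulators nit-2 and nit-4 and nitrate reductase nit-3). Heterokaryon incompatibility genes also had 3 of 5 (60.0%, het-c and pin-c in the same window, and tol).

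**Figure D5:**
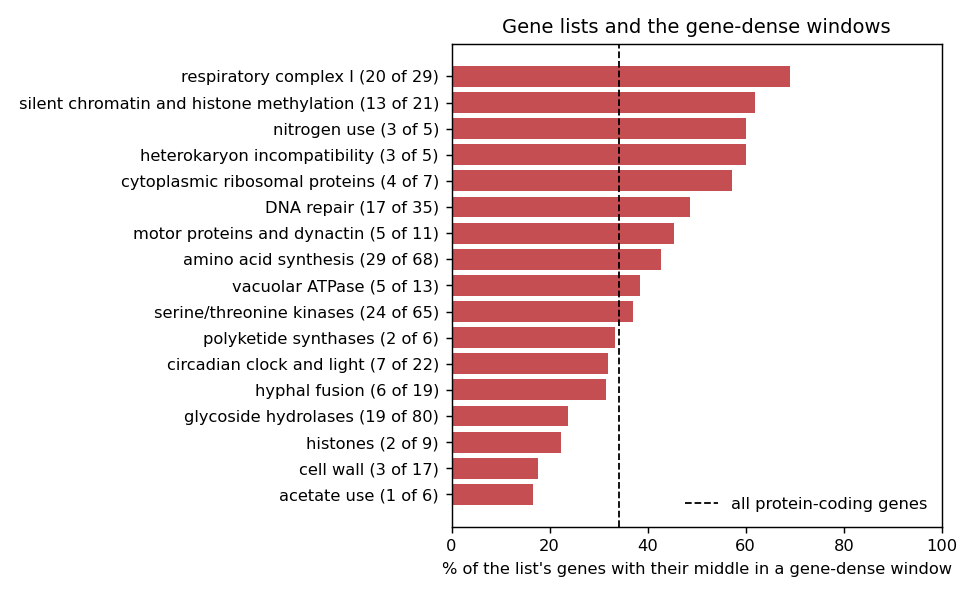
Percentage of the genes of each list with their middle in a gene-dense window (horizontal axis), with the number of genes inside and in the list beside each name; the dashed line marks all protein-coding genes at 34.1%. Respiratory complex I is highest at 69.0%, and acetate-use and cell wall genes are lowest. No line is drawn for the genes with a symbol, from which the lists were collected, at 40.7%.

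A known gene cluster also fell into a gene-dense window, picked after its values were seen. LG VII 2040001 to 2060000 (75.8%) holds the quinic acid cluster, with qa-1F, the activator, qa-1S, the repressor, qa-Y, qa-3, qa-4, qa-2 and qa-X, which are 7 of the 8 genes of the window. On LG IV between 3.1 and 3.5 Mb, 10 of 20 windows were gene-dense, between 52.4 and 91.9% coverage over the 20. This stretch, with dim-5 in its last window, held a larger share of gene-dense windows than the 25.5% of the genome. Its bounds do not come from the rule of the windows, and no test was run on it. The right arm of LG IV, on which it lies, had 33.6%. Its gene-dense windows include those at 75.005 and 75.08%, close to the limit.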

How the data were processed

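The study's authors used MseI Hi-C to place supercontigs on LG I and LG V of a reference whose LG VI had been corrected before, and deposited a gene annotation of the resulting assembly nc14. Its values are first and last bases of features in bp counted from 1, as deposited by the authors and not normalized. It has 81158 records for 9866 genes. How gene models were put on nc14 is not stated in the sources at hand. Were supercontigs placed with a wrong length, every position to their right would shift, and window borders with it.

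A gene spanned all features under its NCU number and was put in the window that holds its middle. A neighbor pair was put in the window that holds the middle of the stretch from the start of its first gene to the end of its second. Of the protein-coding genes, 9705 lie in complete windows, and shares of lists are of all their genes. RefSeq's NC12 table matched 9865 genes and gave a symbol for 1118. Gene types came from the features of the deposited annotation, and no NC12 position was used for the windows. The windows, gene lists and tests were chosen with earlier results of these data known. After the symbols of the table were seen, and before their windows were counted, lists of ergosterol and translation genes were dropped, polyketide synthase, cell wall and motor lists were added, and pks and cys-9 symbols were taken out of the kinase and clock lists. Named genes are those of the 5 windows of highest coverage, the ends of the longest run, the windows of most and fewest genes, the 3 longest genes, the windows on both sides of 75%, list genes in gene-dense windows and genes the study names. All others were named after their values were seen, including list genes outside gene-dense windows and the symbols within runs.

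Of 3 planned exact sign-flip permutation tests over the 7 LGs (2-sided, threshold 0.05, Benjamini-Hochberg adjustment), the 2 of position are given. That of same-strand pairs is not, since orientation is tied to coverage. Alternatives were limits of 70 and 80%, windows of 10 and 40 kb, windows shifted by 10 kb, exon bases alone, protein-coding genes alone, genes wholly inside a window, other comparison windows, another LG I divider and leaving out each LG. Python 3.11.15 with numpy 2.4.6, pandas 2.3.3, scipy 1.17.1 and matplotlib 3.10.9 was used. The code for windows and runs was tested on simulated data and recovered the planted windows in 200 of 200 simulations. Contact matrices, library depth and genome sequence were not analysed here.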

Additional observations from a re-analysis of the deposited data

Results flagged for a closer look

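The longest run of gene-dense windows had 10 windows on LG V, against 3 to 6 on the other LGs. It was picked out because its gap to the next LG, 0.571 of the whole range, narrowly exceeds the 95% critical share of 0.568 for 7 values. Chance passes this limit in about 1 of 20 such groups, and the highest and lowest LG of 10 measures were examined, 20 extremes in all, of which 2 passed.

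The difference in same-strand neighbor pairs between gene-dense and other windows was -17.9 percentage points on LG V, picked out in the same way as the lowest of the 7 LGs. The rRNA array, whose 20 windows are never gene-dense, is on this LG, and with protein-coding genes alone the difference on LG V was -12.0 points, against -10.4 to -5.06 points on the other LGs.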

How the results depend on the processing

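The share of gene-dense windows followed its limit, as it must: 16.3% (332 windows) at 80% and 14.5% (296 windows) with exon bases alone. It was 35.8% (731 windows) at 70%, 32.8% in 10-kb windows and 19.3% in 40-kb windows. With genes wholly inside 1 window, the median number of genes per window differed by 2 between gene-dense and other windows, where it differed by 1 before. The share of gene-dense windows in runs was 72.5% at 70%, 43.4% at 80% and 43.2% with exon bases alone, and the longest run was of 10, 6 and 4 windows. The distance to the nearer LG end and the same-strand share kept their direction in each alternative run. Leaving out each LG in turn, the difference lay between 243.0 and 341.5 kb for the nearer end (exact sign-flip permutation test, adjusted p = 0.0469 each time over 3 tests and 0.0625 over the 2 of position), between -9.81 and -7.67 points for same-strand pairs, and between 68.3 and 134.4 kb for the arm divider, which did not pass. At 70 and 80% and in 10-kb and 40-kb windows, gene-dense windows lay further inward on 6 of 7 LGs (exact test, adjusted p = 0.0469 over 3 tests and 0.0625 over 2). The family of 3 includes the same-strand test, which is not given because orientation is tied to coverage. Over the 2 tests of position, the nearer end did not pass 0.05 in these settings or with any LG left out. With 1 LG left out it could not pass. The smallest p that 6 LGs can give in the sign-flip test is 0.0313, or 0.0625 adjusted beside a divider test that does not pass. Gene-dense windows lay further inward on 6 of 6 LGs each time. The divider difference was 4.95 kb without windows of no gene base and 9.63 kb with windows shifted by 10 kb, each with gene-dense windows further away on 3 of 7 LGs. Leaving out 4 genes of LG I annotated away from their NC12 neighbors and setting apart other windows of at least 50% coverage were added after seeing the data, as was the adjustment over 2 tests. No paired analysis was possible because no library has a value in the file, so replicate numbers pair no values; the pairs of the tests are the classes of window within an LG.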
